A study of Mus musculus with 6 samples.

Results

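The genes of 4 guidance systems, semaphorins with plexins, ephrins with Eph receptors, Slits with Robo receptors, and netrins with Unc5 receptors, were compared between stretched and unstretched cultured podocytes. A gene was a member if the only symbol that the array's annotation gives for a probe set begins with Sema, Plxn, Efna, Efnb, Robo, Unc5 or Ntn, with Epha or Ephb and a digit, or is Slit and a digit. That rule uses no measured value, although it was chosen with earlier results of these data known. It took 70 of the 18193 genes on the array, read by 151 probe sets. Each gene was represented by its probe set with the highest mean over the 6 arrays. The letters also brought in 3 genes outside the guidance families: Unc50, Unc5cl, whose product resembles Unc5c only in part, and Plxna4os1, a non-coding transcript opposite Plxna4. They are counted with the 70 unless said otherwise.

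The cells were SVI, a mouse line of conditionally immortalized podocytes, labelled as from kidney glomerulus and kept at 38 °C in 10% serum for 1 to 2 weeks to differentiate. Unstretched cells formed the first group. The second was stretched biaxially in cycles of 0.5 Hz, to a linear strain of at most 5%, for 3 days. Both groups carry the same immortalizing background and come from 1 line, with 3 arrays each, numbered 1 to 3. The series names independent batches but not what they were, so the spread between arrays may be partly technical.

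Guidance proteins tell a moving cell or growing axon where to go. Class 3 semaphorins, Slits and netrins are secreted, most other semaphorins and all ephrins sit on the cell surface, and their receptors change the actin cytoskeleton through small GTPases. A-type ephrins are held by a lipid anchor and mainly bind EphA receptors, B-type ephrins span the membrane and mainly bind EphB receptors, and both partners can signal into their own cell. In the glomerulus, podocyte semaphorin 3a and its plexin-neuropilin receptors, Robo2 at the slit diaphragm and ephrin-B1 have each been tied to the shape of foot processes, the actin-rich extensions that cover the capillaries.

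Expression is given as a log2 value, so a difference of 1 is a doubling. Levels of different probe sets are compared only roughly, as brighter or dimmer, mainly against the median gene. The array means were equal at 5.70 and the medians lay between 4.92 and 4.98. Of 10 podocyte markers measured, 5 lay above the mean of the median gene (5.74), among them Wt1 and Podxl, and 5 below it, among them nephrin (Nphs1, 5.01 ± 0.14 unstretched and 4.91 ± 0.24 stretched, SD, n = 3 each). Of the 10, 2 fell, Clic5 by 0.81 and Synpo by 0.45 (limma adjusted p = 0.000263 and 0.00412), and 8 did not pass. Among those 8, Actn4 (0.19) and Cd2ap (0.26) were higher on every stretched array and Wt1 had a log2 change of 0.25 with overlap. The rest of the 8 had negative log2 changes with overlap: Lmx1b -0.26, Podxl -0.22, Ptpro -0.13, Nphs1 -0.10 and Tcf21 -0.09. The podocyte list averaged 6.88 to 6.95 on unstretched and 6.76 to 6.84 on stretched arrays. All 6 endothelial and all 6 neuronal markers lay below the median gene. Of 5 leukocyte markers 2 fell, Cd68 and Csf1r, while Itgam (log2 change -0.03) and Cd3e (-0.04) overlapped between groups. The mean log2 value of the leukocyte list was 5.51 to 5.67 on unstretched and 5.22 to 5.31 on stretched arrays. Ptprc, which marks leukocytes in general, was dim at 4.34 ± 0.15 and 4.06 ± 0.04 (SD, n = 3 each) and also lower on every stretched array, without passing (log2 change -0.28, limma adjusted p = 0.0756). The mesangial list ran from 5.99 to 6.07 and from 6.11 to 6.23 with 1 of 4 markers (Pdgfrb) higher, and the tubule list from 5.15 to 5.27 and from 5.27 to 5.35 with 1 of 6 (Cubn) higher. As a sign of RNA quality, beta-actin's 3' control exceeded its 5' control by log2 1.54 to 1.59 on unstretched arrays but by 1.25 to 1.35 on stretched ones, while for Gapdh the ranges overlapped (0.19 to 0.32 and 0.06 to 0.25). The part of these differences in the results below was not tested.

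Few guidance genes changed on their representative probe sets, and those that changed most were an ephrin and an Eph receptor. In a limma fit over all 18193 genes (Benjamini-Hochberg adjusted p under 0.05), 4 of the 70 rose and 1 fell, or 7.14%, against 14.7% of all genes (7.98% higher and 6.76% lower). Efna4, encoding ephrin-A4, the receptor gene Epha2, the netrin receptor gene Unc5b and the plexin gene Plxnd1 rose, and Efna5, encoding ephrin-A5, fell. The other 65 did not pass, and for 60 of those the 95% interval of the log2 change lay within 0.5 of 0 on either side. The median log2 change was 0.02 over the 70 and -0.02 over all genes, with a median size of 0.11 and 0.13. Many members were dim: 41 of the 70 were dimmer than the median gene, where low values can be background, and 1 of those 41 was called against 4.69% of all genes as dim. Among the 29 brighter members 4 were called, or 13.8%, against 24.8% of all brighter genes. The lower share of members depended on the choice of probe set. With probe sets averaged it was 12.9% against 13.8% of all genes, and with a call on any probe set 18.6% against 19.3%. As RNA came from whole cultures, fewer cells of a type and less RNA per cell cannot be told apart.

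**Figure D1:**
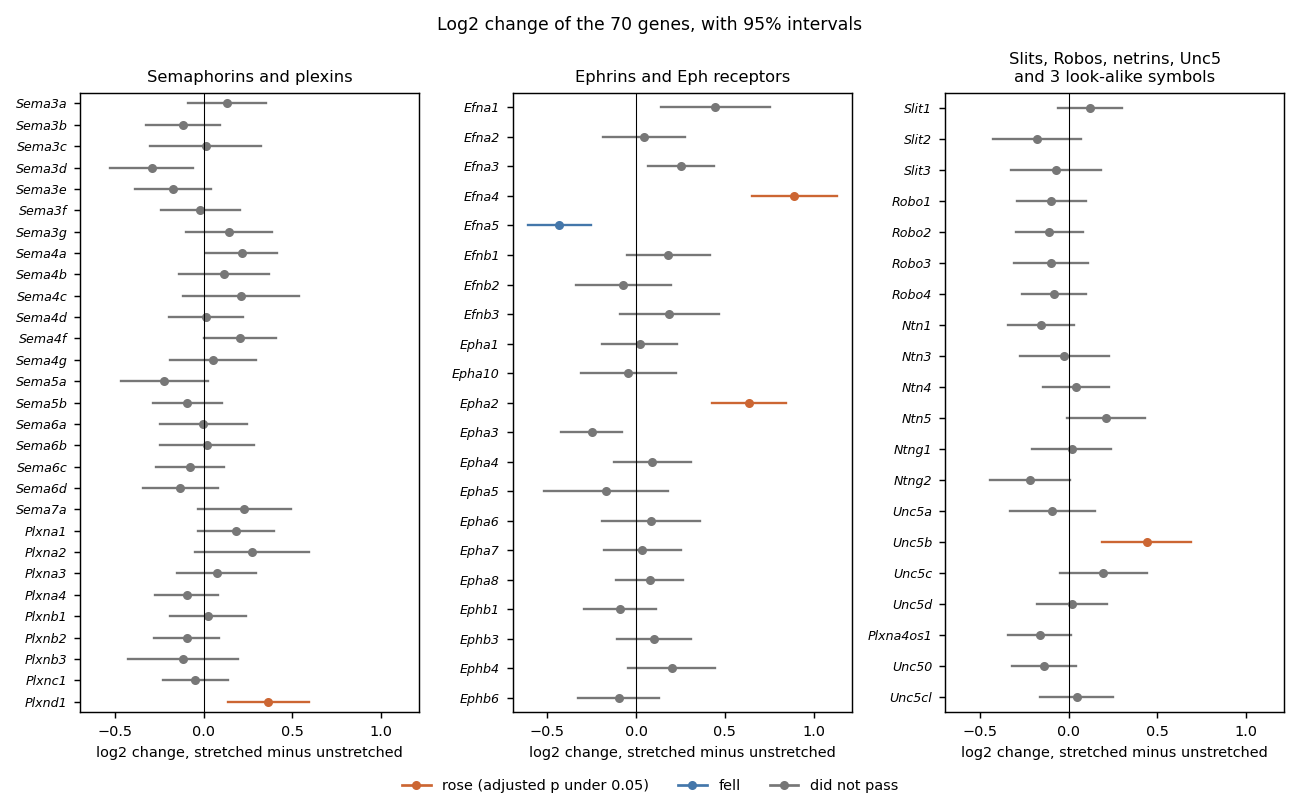
Log2 change (stretched minus unstretched; points) with 95% intervals (bars) from limma for the 70 genes, by family, with 3 arrays a group. Efna4, Epha2, Unc5b and Plxnd1 (orange) rose, Efna5 (blue) fell, and the other 65 intervals (grey) belong to genes that did not pass.

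The stretches of DNA before the starts of these 5 genes are shown because they carry the guidance calls of this comparison. Promoter windows were found for 60 of the 70 members in RefSeq's mouse build GRCm38.p6. Each line is the 250 bases before the annotated start, 5' to 3' on the gene's strand, and capitals mark matches to the motifs searched on both strands. The windows are chr3:89338029-89338278 (minus strand) for Efna4, chr4:141300971-141301220 (plus strand) for Epha2, chr17:62881318-62881567 (minus strand) for Efna5, chr10:60831582-60831831 (minus strand) for Unc5b and chr6:115995006-115995255 (minus strand) for Plxnd1.
Efna4: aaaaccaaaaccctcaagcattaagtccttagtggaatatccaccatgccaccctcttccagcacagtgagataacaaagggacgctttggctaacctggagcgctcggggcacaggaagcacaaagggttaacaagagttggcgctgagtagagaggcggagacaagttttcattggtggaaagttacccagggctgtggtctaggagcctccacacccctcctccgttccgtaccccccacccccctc
Epha2: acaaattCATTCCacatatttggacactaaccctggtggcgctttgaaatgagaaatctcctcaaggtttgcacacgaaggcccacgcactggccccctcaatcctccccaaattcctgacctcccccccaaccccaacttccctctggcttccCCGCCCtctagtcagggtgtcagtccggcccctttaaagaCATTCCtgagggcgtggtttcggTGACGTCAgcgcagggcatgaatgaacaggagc
Efna5: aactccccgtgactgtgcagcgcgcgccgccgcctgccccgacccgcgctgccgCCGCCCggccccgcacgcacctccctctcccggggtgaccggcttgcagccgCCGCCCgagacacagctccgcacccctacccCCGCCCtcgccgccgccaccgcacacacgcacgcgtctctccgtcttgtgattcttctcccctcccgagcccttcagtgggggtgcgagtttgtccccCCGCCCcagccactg
Unc5b: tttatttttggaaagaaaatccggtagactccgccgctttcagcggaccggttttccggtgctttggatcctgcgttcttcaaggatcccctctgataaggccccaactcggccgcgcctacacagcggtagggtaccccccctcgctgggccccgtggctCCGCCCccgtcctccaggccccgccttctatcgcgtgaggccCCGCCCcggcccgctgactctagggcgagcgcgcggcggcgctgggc
Plxnd1: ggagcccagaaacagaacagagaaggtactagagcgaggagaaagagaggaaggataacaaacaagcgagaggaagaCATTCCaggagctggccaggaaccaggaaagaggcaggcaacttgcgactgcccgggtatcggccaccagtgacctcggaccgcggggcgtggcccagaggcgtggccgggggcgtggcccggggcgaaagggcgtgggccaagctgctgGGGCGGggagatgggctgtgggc

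The motifs were the TEAD motif CATTCC, the AP-1 motif TGANTCA, the cAMP response element TGACGTCA, the GC box GGGCGG and the CArG box bound by SRF. They cover factors often discussed in mechanical signalling, with the GC box as a common promoter element, and none overlaps another in these 5 windows. Epha2 held 2 TEAD matches, with first bases 243 and 56 bases before the start, and the TGACGTCA element 33 bases before it, a match found in 1.55% of all 32851 windows. Plxnd1 held 1 TEAD match, 173 bases before its start, and 12.6% of all windows and 9 of 76 windows of members held such a match. The Efna5 window had 4 GC boxes, that of Unc5b had 2, and those of Epha2 and Plxnd1 had 1 each, where 32.7% of all windows and 71.1% of the members' windows had at least 1. Efna4 held none of the 5 motifs in these letters. GC content ran from 54.4% in Efna4 to 74.8% in Efna5, with a median of 52.4% over all windows and 64.0% over those of members. The motifs were chosen after the windows were seen, so these shares cannot tell how unusual a match is. The matches describe the letters and were not tested as binding sites.

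Ephrin-A ligands held the largest change. Efna4 was at 4.99, 4.68 and 5.06 on unstretched replicates 1 to 3 and at 5.75, 5.85 and 5.80 on stretched replicates 1 to 3. All stretched arrays were higher, by more than the spread within either group. The change was 1.85-fold (95% interval 1.57 to 2.19), a log2 change of 0.89 (SE 0.11, limma adjusted p = 0.000413). Its single probe set had a mean of 5.36 over the 6 arrays, below the median gene. Efna5 went the other way, from 10.03, 10.07 and 9.97 on unstretched to 9.63, 9.57 and 9.58 on stretched arrays. The arrays of a group lay within 0.1 of each other and the groups were well apart. Efna5 was 1.35-fold lower after stretch (95% interval 1.19 to 1.52), with a log2 change of -0.43 (SE 0.08, limma adjusted p = 0.00495). The Efna5 call ended when a change of more than 0.2 was required (adjusted p = 0.119).

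Efna1 and Efna3 had higher values on all stretched arrays without passing. Efna1 ran at 6.81, 6.48 and 6.65 without stretch and at 7.41, 6.90 and 6.97 with it, so that the groups did not overlap but stretched replicate 1 stood above the other stretched arrays. Its log2 change was 0.45 (SE 0.14) at a limma adjusted p of 0.0541, just outside the threshold. Efna1 passed with a replicate block (adjusted p = 0.00909), a random replicate block (0.0279), averaged probe sets (0.00888), arrays centred on their medians (0.0480), dim genes left out (0.0421), a trended robust prior (0.0416) or without stretched replicate 2 (0.0445). Without stretched replicate 1 its log2 change was 0.29 (adjusted p = 0.179). Efna3 ran at 4.57, 4.62 and 4.58 and at 4.81, 4.94 and 4.78, also without overlap, with a log2 change of 0.25 (SE 0.08, adjusted p = 0.0706), although its second probe set differed by -0.08 with overlap. Efna3 passed under each of the other scalings, with quantile normalization again (adjusted p = 0.0381), arrays centred on their medians (0.0449) and cyclic loess (0.0331), and with a random replicate block (0.0449), but stood at 0.09 with probe sets averaged (0.521). Efna2 differed by 0.05 (95% interval -0.19 to 0.28) and its groups overlapped. Groups did not overlap in 4 of the 5 A-ephrins, 18 of the 70 members (10 higher, 8 lower) and 32.6% of all genes (16.0% higher, 16.6% lower).

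The B-ephrins Efnb1, Efnb2 and Efnb3 had log2 changes of 0.18, -0.07 and 0.19, with overlapping groups in each and limma adjusted p from 0.302 to 0.760. Efnb1 was at 7.64, 7.61 and 7.87 on unstretched and 7.76, 7.87 and 8.05 on stretched arrays on its representative probe set. Unstretched replicate 3 and stretched replicate 2 had the same value at this precision, and the shift of the means was within the range of either group.

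**Figure D2:**
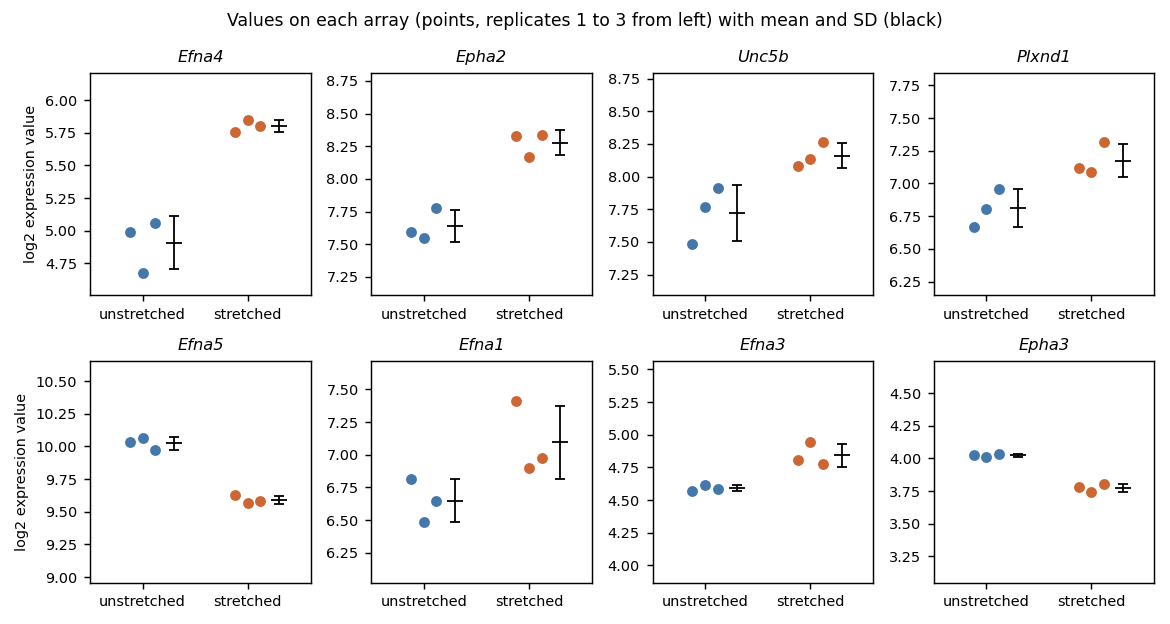
Log2 expression value on each array (points, replicates 1 to 3 from left) with mean and SD (black) for the 5 genes that passed and 3 that came close, each panel spanning the same range of log2 units. In all 8 genes the stretched arrays lie wholly above or wholly below the unstretched ones, for example Efna4 at 5.75 to 5.85 against 4.68 to 5.06.

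Among 13 Eph receptors, 1 rose and 0 fell past the limma threshold on their representative probe sets, or 7.69% against 14.7% of all genes. Epha2, a receptor for A-ephrins found on many epithelial cells, was at 7.59, 7.55 and 7.78 without and at 8.33, 8.16 and 8.33 with stretch. The lowest stretched array stood well above the highest unstretched one. The level was 1.55-fold higher (95% interval 1.34 to 1.80), a log2 change of 0.64 (SE 0.10, limma adjusted p = 0.00151). With Efna4 it was the member whose call held when a minimum change of 0.2 was required (adjusted p = 0.0154 for Epha2 and 0.00222 for Efna4). Epha3, another receptor for A-ephrins, was dim but very even, at 4.02, 4.01 and 4.04 and at 3.78, 3.74 and 3.80. Its groups were apart by several times their spread, at a log2 change of -0.25 (SE 0.08), and it missed the threshold (adjusted p = 0.0565), which it passed with a random replicate block (0.0357) or a trended robust prior (0.0474). The other Epha3 probe sets stood at -0.14 and 0.002 with overlap and at -0.12 without. Means of the Epha3 probe sets ran from 2.97 to 3.90, where the lowest value on the arrays was 2.67. Epha4, which binds both kinds of ephrin, differed by 0.09 (95% interval -0.13 to 0.31) on its representative probe set. The other EphA receptors, Epha1, Epha5, Epha6, Epha7, Epha8 and Epha10, had log2 changes from -0.17 to 0.09, and the EphB receptors Ephb1, Ephb3, Ephb4 and Ephb6 from -0.10 to 0.20, all with overlapping groups. The widest interval of these was that of Epha5, from -0.52 to 0.18, which holds a fall as large as that of Efna5.

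No semaphorin passed on its representative probe set, where limma called 0 of the 20 genes at the adjusted threshold. Other probe sets of Sema3a (log2 change 0.95), Sema4d (0.43) and Sema3b (-0.50) did pass in the fit over all probe sets, as given below. Among the secreted class 3 genes, Sema3d was lower on every stretched array, at 4.39, 4.39 and 4.29 against 4.55, 4.87 and 4.52, with a log2 change of -0.29 (SE 0.11, adjusted p = 0.0949). Sema3e was at 6.42, 6.68 and 6.37 and at 6.32, 6.34 and 6.29, a log2 change of -0.17 (SE 0.10, adjusted p = 0.288). Unstretched replicate 2 was the high array of both genes. Other probe sets of these genes differed in direction. For Sema3e they stood at 0.27, higher on every stretched array, at -0.26, lower on every stretched array, and at -0.13 with overlap. The second Sema3d probe set stood at 0.02 with overlap. Sema3a, the repulsive cue known from podocytes, was at 8.92 ± 0.09 and 9.05 ± 0.16 (SD, n = 3 each), with overlapping groups and a 95% interval from -0.09 to 0.35. Sema3c, with 10.10, 10.47 and 10.49 against 10.65, 10.23 and 10.20, had nearly equal means and opposite order of its arrays, so its interval stayed wide (-0.30 to 0.32). Sema3b, Sema3f and Sema3g had log2 changes of -0.12, -0.02 and 0.14.

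The class 4 semaphorins, which span the membrane and mainly bind B-type plexins, had positive log2 changes in all 6 members, from 0.01 (Sema4d) to 0.21 (Sema4a), but Sema4d turned negative with the arrays quantile normalized again (-0.065) or cyclic loess (-0.051) and Sema4a with an unsuffixed probe set (-0.014). Sema4a was at 5.17, 5.20 and 5.30 and at 5.35, 5.39 and 5.56, and Sema4f at 4.88, 4.93 and 4.88 and at 5.25, 5.08 and 4.98. Neither pair of groups overlapped, and adjusted p was 0.149 and 0.177. Sema5a and Sema5b had log2 changes of -0.22 and -0.09, class 6 genes ran from -0.13 (Sema6d) to 0.02 (Sema6b) with Sema6c at -0.08, and Sema7a, which is lipid-anchored, stood at 0.23 (SE 0.12, adjusted p = 0.244).

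Of 9 plexins, the semaphorin receptors, 1 rose. Plxnd1, the receptor of Sema3e, was at 6.67, 6.80 and 6.96 and at 7.12, 7.08 and 7.32. The groups did not overlap, although the gap between them was smaller than the range within either. The change was 1.29-fold (95% interval 1.10 to 1.51), a log2 change of 0.36 (SE 0.10, limma adjusted p = 0.0379). The call ended without unstretched replicate 1 (adjusted p = 0.117) or 2 (0.0918), without stretched replicate 1 (0.0821), 2 (0.0590) or 3 (0.145), and under quantile normalization again (0.0680) or cyclic loess (0.0630) and with the minimum change (0.555). Plxna1 and Plxnb2, which pair with class 3 or class 6 and with class 4 semaphorins, had log2 changes of 0.18 (adjusted p = 0.259) and -0.10 (adjusted p = 0.517). Plxna2 had the largest log2 change of the rest, 0.27 (SE 0.15), with unstretched replicate 3 (6.07) level with the highest stretched array (6.06). Without that array the log2 change of Plxna2 was 0.46 and it passed (limma adjusted p = 0.0133). The remaining 5 plexins lay between -0.12 and 0.07.

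Slit ligands and their Robo receptors showed no limma call among 7 genes on their representative probe sets. A second Robo3 probe set did fall (log2 change -0.29), as given below. Slit1 was at 5.44, 5.37 and 5.46 and at 5.51, 5.61 and 5.53, without overlap but with a log2 change of only 0.12 (adjusted p = 0.374). Slit2 and Slit3 differed by -0.18 and -0.07. All 4 Robo genes had log2 changes between -0.11 and -0.08 on their representative probe sets, and each also kept a negative sign under the 3 other scalings. Of all 9096 genes dimmer than the median gene, 5537 had negative log2 changes, with a median of -0.04 over the 9096. The other Robo1 probe sets stood at 0.21 with overlap and at -0.17 without. Robo2, the member studied at the slit diaphragm, was at 3.22, 3.22 and 3.07 and at 3.10, 3.07 and 3.00, close to the lowest values on the array, so little can be read from it. All 7 of these genes had means below that of the median gene.

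Among the netrins and their Unc5 receptors, 1 of 10 rose. Unc5b, a netrin receptor known from vessels, was at 7.49, 7.77 and 7.91 on unstretched and at 8.08, 8.14 and 8.26 on stretched arrays. Unstretched arrays spread more than stretched ones, and the groups did not overlap. The level was 1.36-fold higher (95% interval 1.14 to 1.61), a log2 change of 0.44 (SE 0.11, limma adjusted p = 0.0252). The call ended without unstretched replicate 1 (adjusted p = 0.0709) or 2 (0.0543), without stretched replicate 1 (0.0524), 2 (0.0647) or 3 (0.0998), and under quantile normalization again (0.0657) or cyclic loess (0.0505) and with the minimum change (0.304). Ntn4, a netrin of basement membranes, was at 11.38 ± 0.08 and 11.42 ± 0.06 (SD, n = 3 each), with a log2 change of 0.04 that became -0.034 under quantile normalization again and -0.029 under cyclic loess. Ntn1, the founding netrin, was at 10.16, 10.18 and 10.25 and at 10.06, 10.11 and 9.95, lower on every stretched array by a small amount (-0.16, SE 0.08, adjusted p = 0.261). Ntng2, a lipid-anchored relative, had a log2 change of -0.22 (adjusted p = 0.195). Ntn5 was higher on every stretched array, at 4.87, 4.81 and 4.89 against 4.71, 4.78 and 4.45, without passing (adjusted p = 0.203). Unc5a, Unc5c and Unc5d lay between -0.09 and 0.20. Of the 3 genes that share only letters, Unc50, Plxna4os1 and Unc5cl had log2 changes of -0.14, -0.16 and 0.05, with no overlap in the first and second.

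Several genes gave different answers on different probe sets. The 45 members with more than 1 probe set had 14 in which all pointed the same way and 31 in which they did not, where 48.3% of all 9010 such genes pointed one way, with other numbers of probe sets per gene. With all 34945 probe sets tested by limma, 16 of the members' 151 were called (12 higher, 4 lower), or 10.6%, against 13.1% of all (8.18% higher, 4.96% lower). Of these, 11 were probe sets that did not represent their gene, in 9 genes. The second Efna1 probe set rose from 5.37, 5.18 and 5.40 to 6.37, 6.03 and 5.97, a log2 change of 0.81 (SE 0.12, adjusted p = 0.00201). Both Efna1 probe sets thus had higher values on every stretched array. The second Unc5b probe set rose too, from 6.39, 6.67 and 6.86 to 7.27, 7.27 and 7.91 (log2 change 0.84, SE 0.18, adjusted p = 0.0118).

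Efnb1 rose on its other 2 probe sets, by 0.55 (SE 0.15, adjusted p = 0.0379) and 0.64 (SE 0.17, adjusted p = 0.0326). Epha4 rose on 2 of 5, by 0.34 (SE 0.09, adjusted p = 0.0360) and 0.69 (SE 0.19, adjusted p = 0.0345). All 5 Epha4 probe sets had positive log2 changes, the lowest 0.09. Another Sema3a probe set ran at 4.66, 4.93 and 5.15 and at 5.60, 5.64 and 6.36 and rose by 0.95 (SE 0.20, adjusted p = 0.0102), while the others differed by 0.13 and 0.28. Sema4d rose by 0.43 (SE 0.12, adjusted p = 0.0336) on 1 probe set, with 0.01 and -0.19 on the others. On the lower side, a second Sema3b probe set fell by 0.50 (SE 0.11, adjusted p = 0.0142) and a second Robo3 probe set fell by 0.29 (SE 0.08, adjusted p = 0.0429). Unc50, which is outside the guidance families, fell by 0.50 (SE 0.12, adjusted p = 0.0197) on 1 of 3. No gene had calls in both directions, and 9 genes had a call for a rise and 4 for a fall on at least 1 probe set, which makes 18.6% of the 70 against 19.3% of all genes. With all probe sets of a gene averaged, 7 rose (Efna1, Efna4, Efnb1, Epha2, Plxnd1, Sema3a and Unc5b) and 2 fell (Efna5 and Sema3b), or 12.9% of the 70 against 13.8% of all genes. Which transcripts the probe sets read was not analysed here.

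**Figure D3:**
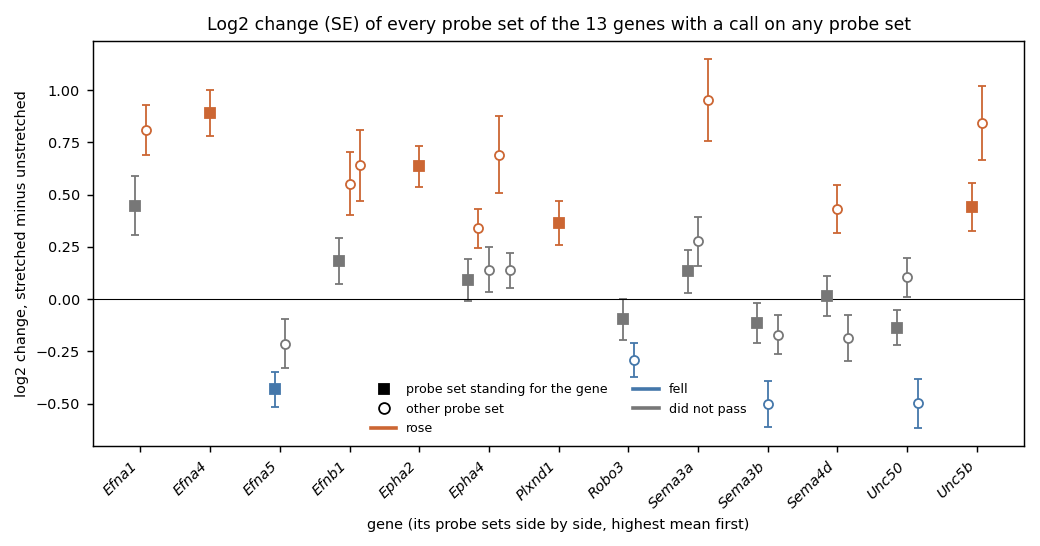
Log2 change (stretched minus unstretched) with SE for each probe set of the 13 genes with a limma call on any, in the fit over all probe sets, with squares for the probe set that represents the gene and open circles for the others. Sema3a runs from 0.13 to 0.95 and Efnb1 from 0.18 to 0.64 between probe sets, while both Unc5b and both Efna5 probe sets point the same way.

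The 3 A-ephrin genes without overlap between groups and with higher values lie next to each other. In RefSeq's order of protein-coding genes on mouse chromosome 3, Efna1, Efna3 and Efna4 follow one another with no protein-coding gene between. This was looked at after their values were known. Their measured neighbours differed in direction. On the Efna1 side, Slc50a1 fell by 0.33 (SE 0.10, limma adjusted p = 0.0446), Dpm3 and Krtcap2 had log2 changes of -0.13 and 0.08, and the next genes, Trim46 and Muc1, rose by 0.52 (SE 0.09, adjusted p = 0.00434) and 0.43 (SE 0.09, adjusted p = 0.0115). On the Efna4 side, Adam15 differed by -0.04 (SE 0.08, adjusted p = 0.807), and Dcst1, Dcst2 and Zbtb7b by 0.24, -0.15 and 0.30 without a call. Other neighbouring members were Robo1 with Robo2 (-0.10 and -0.11), Robo3 with Robo4 (-0.10 and -0.08) and Sema3a with Sema3d, which had opposite signs (0.13 and -0.29).

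**Figure D4:**
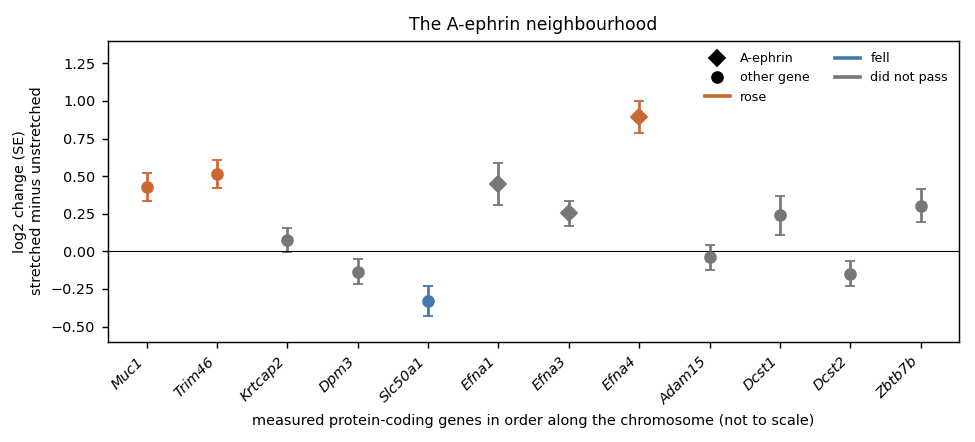
Log2 change (stretched minus unstretched) with SE for the measured protein-coding genes around Efna1, Efna3 and Efna4 (diamonds), in their order along the chromosome and not to scale. Efna4 stands highest at 0.89, Adam15 beside it is at -0.04 and Slc50a1 beside Efna1 at -0.33.

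Genes that work with these ligands and receptors changed in both directions. Of 61 listed coreceptors, ligands and intracellular effectors, 59 were measured, and 10 rose and 5 fell in limma, or 25.4% against 14.7% of all genes, with a median log2 change of 0.06. With quantile normalization again the split was 6 higher and 6 lower, and without stretched replicate 1 or stretched replicate 2 the rises numbered 5. Of the 59, 42 were brighter than the median gene, compared with 29 of the 70 members. Among all genes, 24.8% of the brighter and 4.69% of the dimmer ones were called. At the membrane 4 of 17 rose and 0 fell. Met, the hepatocyte growth factor receptor that associates with B-type plexins, went from 10.57, 10.68 and 10.48 to 11.16, 11.10 and 11.16, a log2 change of 0.56 (SE 0.09, adjusted p = 0.00178). Nrp1, the coreceptor that lets class 3 semaphorins act through A-type plexins, is named although the naming rule did not pick it, and it rose from 7.30, 7.55 and 7.66 to 8.13, 8.01 and 7.78 (log2 change 0.47, SE 0.12, adjusted p = 0.0236). The groups did not overlap, but the Nrp1 call ended without unstretched replicate 1 (adjusted p = 0.0767) or 2 (0.0519), without stretched replicate 1 (0.101) or 2 (0.0759), under quantile normalization again (0.0505) and with the minimum change (0.261). The netrin receptors Dcc and Neo1 and the second neuropilin, Nrp2, did not pass (adjusted p = 0.934, 0.464 and 0.429).

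Inside the cell 6 of 41 effectors rose and 5 fell. Among those that rose, Mical2, an actin-oxidising enzyme of the family that acts behind plexins, was at 5.59, 5.62 and 5.63 and at 6.33, 6.28 and 6.38 (log2 change 0.72, SE 0.08, adjusted p = 0.000273). Its relative Mical3 fell, from 7.11, 6.84 and 7.03 to 6.51, 6.07 and 6.26 (log2 change -0.71, SE 0.12, adjusted p = 0.00294). Mical2 and Mical3 thus moved in opposite directions by similar amounts, while Mical1 differed by 0.02 with overlap (limma adjusted p = 0.921). Ptpn13, a phosphatase that binds the tail of B-ephrins, rose by 0.74 (SE 0.08), Enah, which lengthens actin filaments, by 0.58 (SE 0.10) and the Src-family kinase gene Fyn by 0.48 (SE 0.08), with adjusted p from 0.000282 to 0.00327. Ablim1, an actin-binding LIM protein, fell by 0.77 (SE 0.09, adjusted p = 0.000282), and Arhgef12 fell by 0.47 (SE 0.08, adjusted p = 0.00370). Among GTPase-activating proteins that bind Robo receptors, Srgap1 fell by 0.62 (SE 0.15, adjusted p = 0.0171) and Arhgap39 fell by 0.49 (SE 0.10, adjusted p = 0.00850). The Srgap1 call ended without unstretched replicate 2 (adjusted p = 0.0671) and with the minimum change of 0.2 (0.126), which also ended the calls of Arhgap39 (0.124), Arhgef12 (0.0718) and Fyn (0.0637). The Arhgap39 call also ended with probe sets averaged (adjusted p = 0.437), and its sign turned with an unsuffixed probe set (log2 change 0.17, adjusted p = 0.439).

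**Figure D5:**
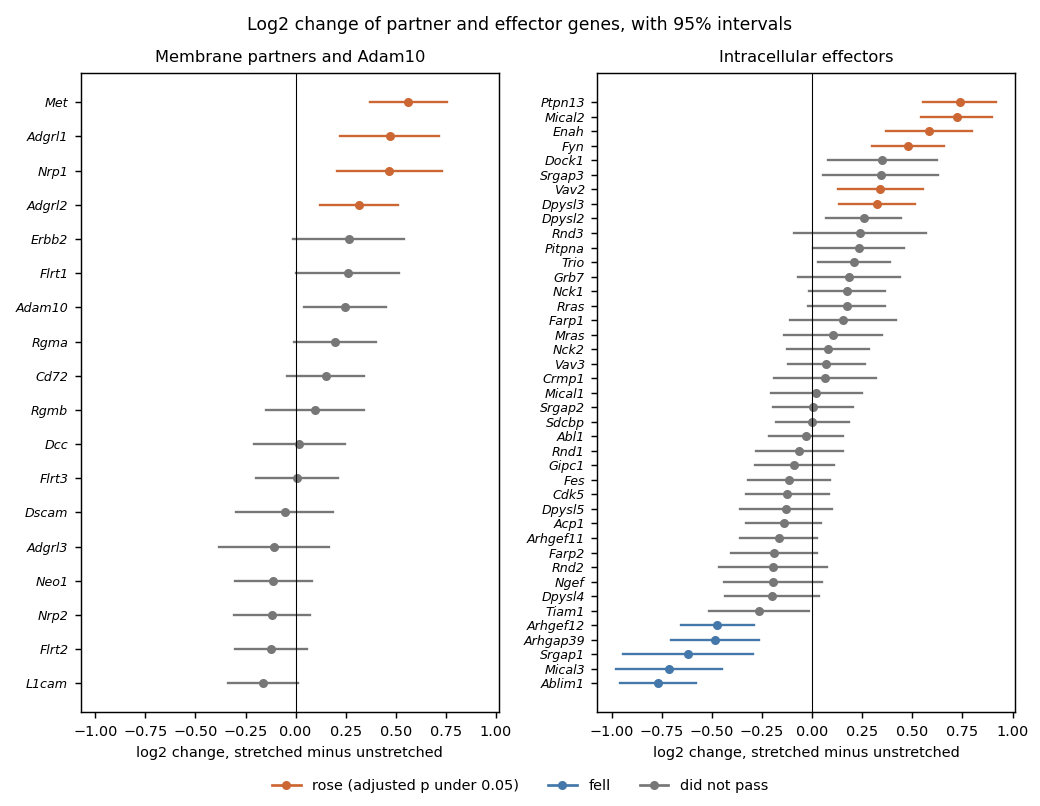
Log2 change (stretched minus unstretched; points) with 95% intervals (bars) from limma for 59 partner and effector genes, split into those at the membrane with the protease Adam10 and those inside the cell. In the left panel Met, Adgrl1, Nrp1 and Adgrl2 rose and no gene fell, and in the right panel 6 rose, led by Ptpn13 (0.74), and 5 fell, led by Ablim1 (-0.77).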

How the data were processed

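Total RNA of 6 samples was made into biotinylated cRNA by the Affymetrix protocol, per the labels. The authors deposited a log2 value for every probe set on every array. RMA is named in the submitters' processing notes; such summaries can compress the changes of dim probe sets. The RMA version: not given in the sources used here. Of 45101 probe sets, 64 controls were left out, 34945 had 1 gene symbol, 932 had several (none of them a guidance gene) and 9160 stay unnamed.

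The difference between the groups was estimated in R 4.3.3 by limma 3.58.1 (lmFit, eBayes, no covariates) on all 18193 genes. Values with an SE come from this fit, with n = 3 per group, and those of single probe sets from a second fit over all of them. No filter on dim genes was applied. The number of arrays limits the precision. An exact permutation test of 3 against 3 cannot give less than 0.1. Steps were tested on simulated data. Groups came from the sample titles.

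Members, lists and alternatives were chosen with earlier results of these data known, and motifs after the windows were seen. Named are called members, the brightest and 2 others of each family by the moderated statistic, genes with a called probe set, and 10 partners by that statistic; the remaining genes named were chosen after their values were seen. Alternatives were a block for the replicate number, each array left out, 3 scalings, a dim filter, other uses of probe sets, another prior and a minimum change of 0.2.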

Additional observations from a re-analysis of the deposited data

How the results depend on the processing

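The calls of Efna4 and Epha2 held under every alternative that could be run (Efna4 is below the filter on dim genes), and that of Efna5 under all but the minimum change. Log2 changes ranged from 0.78 to 0.97, 0.56 to 0.71 and -0.505 to -0.32. Calls for a rise among guidance genes numbered 4, and 2 to 5 with 1 array left out, 7 with probe sets averaged, 9 with every probe set tested and 2 with the minimum change. Calls for a fall numbered 1, also whichever array was left out, 2 with a random replicate block, averaged probe sets or a trended robust prior, 4 with every probe set and 0 with the minimum change. Partner calls numbered 10 and 5; they were 5 to 11 and 4 to 6 with 1 array left out, 4 and 2 with the minimum change, and 6 rises with quantile normalization again. Over all genes 1452 rose and 1229 fell, 872 to 1450 and 767 to 1189 with 1 array left out, and 469 and 364 with the minimum change. Counts moved by over 1.5 times without stretched replicate 1 (872 rises, 789 falls), 2 (780 falls) and 3 (767 falls). The split over all genes was 1149 higher and 1544 lower with quantile normalization again, and 1192 and 1481 with cyclic loess. The median over guidance genes lay between -0.02 and 0.06.

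Genes without a call changed sign in places. Ntn4 was at -0.034 with quantile normalization again, -0.029 with cyclic loess and -0.00092 with averaged probe sets. Sema3c was at -0.072, -0.060 and -0.11 in the same order and from -0.13 to 0.091 with 1 array left out. Sema4d was at -0.065 and -0.051 and from -0.053 to 0.050, Sema6b from -0.085 to 0.10 with 1 array left out, Sema4a at -0.014 with unsuffixed probe sets, Sema5b at 0.034 with averaged probe sets and Arhgap39, which was called, at 0.17 with unsuffixed ones. The causes were not tested.

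Equal replicate numbers are not stated to mark a shared batch. For that reason the main fit had no block. Same-numbered arrays correlated in their deviations by 0.018, 0.15 and 0.28. Arrays of unlike number correlated by -0.24 to 0.11, the highest being unstretched replicate 1 with stretched replicate 2. With 3 arrays a group these values cannot decide whether the numbers pair the samples. With a replicate block, 5 guidance genes rose, Efna1 now among them (adjusted p = 0.00909), and 1 fell, and calls over all genes numbered 3102. A random replicate block had a consensus correlation of 0.15. With it 6 guidance genes rose, Efna1 and Efna3 now among them, and 2 fell, with Epha3, and calls over all genes numbered 3283. Signal over background is unknown, which limits what the dim members show.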
